A study of Mus musculus with 12 samples.

Results

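The resistin family of the mouse is a set of 4 genes, Retnla, Retn, Retnlb and Retnlg, and all 4 are measured here among the 22180 genes that the array names with a single symbol. The members were taken by name, each at its brightest probe with a single gene symbol, and each member had 1 such probe. RNA levels were measured on 12 mouse gene arrays, 2 for each of 6 groups: epididymal fat and inguinal fat, both white fat, and liver, each from male Mgl2-DTR mice and from male wild-type mice. In Mgl2-DTR mice, Mgl2 drives a receptor for diphtheria toxin. Cells that make its product, the lectin CD301b, namely a subset of mononuclear phagocytes, are therefore depleted by the toxin. Wild-type mice were C57BL/6N mice of the same age that lack the receptor. Mice of both genotypes received 500 ng of diphtheria toxin per dose into the abdomen every 3 days, and were sampled on day 10. The comparisons of the study ask what the loss of these cells does to RNA levels in each tissue. The labels do not say that the replicates of a group came from different animals, so each p-value rests on the spread of these samples, which may be technical.

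Resistin family proteins are small secreted proteins rich in cysteine that form disulfide-linked assemblies. In the mouse, Retn encodes resistin, a hormone made by white fat cells that lowers the response to insulin. Retnla encodes RELMα (FIZZ1), which the cytokines IL-4 and IL-13 induce through STAT6 in alternatively activated macrophages and which is widely used as their marker. Retnlb encodes RELMβ, a product of goblet cells of the gut, and Retnlg encodes RELMγ, found mainly in bone marrow and neutrophils.

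The 3 RELM genes lie side by side on chromosome 16 and Retn lies on chromosome 8. In RefSeq's table for GRCm38.p6, Retnlb spans 48816856 to 48818892, Retnla 48842609 to 48844461 and Retnlg 48872608 to 48874498 of chromosome 16, and Retn spans 3655770 to 3659818 of chromosome 8. The 250 bases before the gene start are shown for the 3 members found in RefSeq's promoter table, because Retnla and Retnlg are neighbours with closely similar promoters, of which Retnla was bright and Retnlg dim in wild-type fat. The windows are on the plus strand of GRCm38.p6, at chr16:48842359-48842608 for Retnla, chr16:48872358-48872607 for Retnlg and chr8:3655520-3655769 for Retn. Capitals mark matches, on either strand, to 3 motifs: TTCNNNNGAA, the spacing that STAT6 prefers, TTGCNNAA, a C/EBP-type site, and the TATA box TATAAA.
Retnla: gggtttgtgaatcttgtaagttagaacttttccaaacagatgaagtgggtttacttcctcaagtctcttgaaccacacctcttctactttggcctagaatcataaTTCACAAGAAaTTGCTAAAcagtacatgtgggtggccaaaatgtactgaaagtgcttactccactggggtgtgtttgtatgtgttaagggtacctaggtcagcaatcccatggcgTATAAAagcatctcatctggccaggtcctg
Retnlg: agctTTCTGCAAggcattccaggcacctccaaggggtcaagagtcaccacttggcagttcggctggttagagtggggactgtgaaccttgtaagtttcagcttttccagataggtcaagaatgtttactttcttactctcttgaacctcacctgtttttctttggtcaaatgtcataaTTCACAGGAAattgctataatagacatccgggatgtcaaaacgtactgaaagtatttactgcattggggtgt
Retn: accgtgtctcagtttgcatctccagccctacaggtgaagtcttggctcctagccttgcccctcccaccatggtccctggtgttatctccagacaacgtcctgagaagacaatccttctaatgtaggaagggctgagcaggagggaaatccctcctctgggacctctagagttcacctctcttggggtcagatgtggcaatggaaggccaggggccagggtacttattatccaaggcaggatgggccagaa

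The Retnla window held the STAT6-type match TTCACAAGAA 145 to 136 bases before the start, and the C/EBP-type match TTGCTAAA at 134 to 127, with 1 base between them, and a TATA box at 30 to 25. The Retnlg window held the STAT6-type match TTCACAGGAA 72 to 63 bases before its start and a C/EBP-type match on the minus strand, TTCTGCAA, at 246 to 239. No capitals appear in the Retn window, so it holds none of the 3 sets of letters. Of the 32851 windows of the same length in the table, 5.85% hold the STAT6-type letters, 9.56% the C/EBP-type letters and 12.4% the TATA letters, and the motifs were picked with these sequences in view. Over the table's full windows, which run on past the gene start, Retnla and Retnlg aligned over 228 columns, with 178 identical bases (78.1%) and 3 gap columns. Counted from each gene start, bases -250 to -24 of Retnla aligned with bases -176 to 49 of Retnlg. The Retnlg stretch aligned with the Retnla TATA box therefore lies past the Retnlg start, outside the window shown and searched. The best local alignment of Retn with Retnla covered only 11 columns, and that of Retn with Retnlg covered 41.

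Retnla was the member that changed with the genotype, in both fat depots. Its epididymal call was lost in 19 of 28 alternative settings, and its inguinal call in 1. In liver, where Retnla was dim on every array, no change was detected. Retn, the fat-cell hormone, showed no change past the test, with readings near the top of the arrays' range in fat. Retnlb was dim on every array, and Retnlg was dim on 11 of 12. Levels are normalized log2 values as deposited, with array medians of 5.19 to 5.28 and array maxima of 13.75 to 13.91, so a difference of 1 corresponds to 2-fold on the array's scale. The test took genes with a mean above 5.71 in 1 tissue or more (4 arrays each), a filter level set at the median value of the single-symbol probes. Of the 4 members, 2 passed, Retnla and Retn, as did 12710 genes in all.

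**Figure D1:**
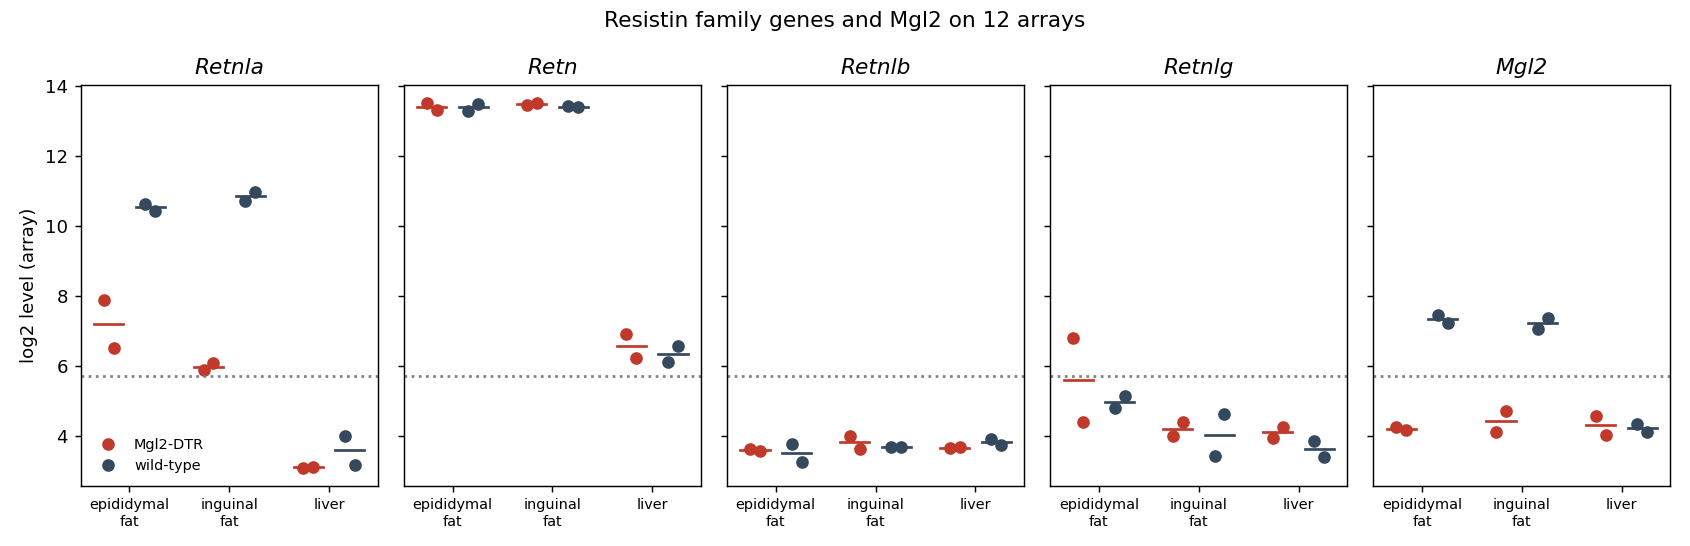
Log2 level (vertical axis) of the 4 resistin family genes and of Mgl2 on each of the 12 arrays. Points are single arrays, short lines are means of the 2 arrays of a group, red is Mgl2-DTR, dark blue is wild-type, and the dotted line is the filter level of 5.71. Retnla lies between 5.88 and 7.90 in Mgl2-DTR fat and between 10.44 and 10.97 in wild-type fat, while Retn lies between 13.28 and 13.51 in fat of both genotypes.

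Before the members, the labels and the tissues were checked. Mgl2 itself read 4.25 and 4.19 in Mgl2-DTR epididymal fat, against 7.46 and 7.22 in wild-type epididymal fat. It read 4.12 and 4.72 in Mgl2-DTR inguinal fat, against 7.07 and 7.36 in wild-type inguinal fat, and 4.59 and 4.03 in Mgl2-DTR liver, against 4.36 and 4.12 in wild-type liver. Its log2 change (Mgl2-DTR minus wild-type) was -3.12 (SE 0.24, limma adjusted p = 0.00376) in epididymal fat and -2.80 (SE 0.24, limma adjusted p = 0.00199) in inguinal fat. All Mgl2-DTR fat values of Mgl2 were under the filter level, and with values under that level set to it the changes were -1.63 (limma adjusted p = 0.00651) and -1.50 (limma adjusted p = 0.00212). In liver, where Mgl2 was under the filter level in both genotypes, the change was 0.07 (SE 0.24, limma adjusted p = 0.9999). Hepatocyte genes averaged 12.2 to 12.3 in liver and 5.30 to 6.57 in fat, and adipocyte genes averaged 7.16 to 7.32 in liver and 10.1 to 10.8 in fat. Some arrays stood apart within their group. Epididymal duct genes averaged 11.7 in Mgl2-DTR epididymal replicate 2 and 4.05 to 4.38 on the other 11 arrays. Skeletal muscle genes averaged 9.91 in Mgl2-DTR inguinal replicate 1 and 10.2 in wild-type inguinal replicate 2, against 6.83 and 6.86 in the other inguinal replicate of each genotype. Pan-macrophage genes averaged 10.3 in wild-type epididymal replicate 1, above every other array. Hepatocyte genes averaged 6.57 in wild-type epididymal replicate 2, with 9 of 14 above the filter level, against 5.30 to 5.39, with 2 of 14 above it, on the other 3 epididymal arrays. All 14 were lower in Mgl2-DTR epididymal fat (median change -0.55), and none was called. The part of these differences in the results was not tested. Without the 2 muscle-bearing inguinal arrays the inguinal change of Mgl2 was -2.35 and did not pass (limma adjusted p = 0.130), and without the epididymal replicates that hold the duct and the high macrophage signal its epididymal change was -2.97 (limma adjusted p = 0.0279).

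Retnla in epididymal fat read 7.90 and 6.53 in Mgl2-DTR mice, against 10.62 and 10.44 in wild-type mice. Both Mgl2-DTR arrays were below both wild-type arrays, and they lay further from each other than the wild-type arrays did. The means were 7.21 ± 0.97 in Mgl2-DTR and 10.53 ± 0.13 in wild-type fat (SD, n = 2 each). Retnla fell by 3.32 on the log2 scale (SE 0.39, 95% interval -4.20 to -2.43), a level 9.97-fold lower, with a limma adjusted p of 0.0371. It had the rank 2 among falls of the 12710 genes tested. Of the 4 members, 1 was thus called among the 2 tested, where 0.0315% of all genes tested were called. The direction did not depend on any setting tried, but the call did. It was lost when 1 array was left out in 10 of 12 cases, namely each inguinal and each liver array, wild-type epididymal replicate 1 and Mgl2-DTR epididymal replicate 2 (limma adjusted p of 0.0897 to 0.151). Without Mgl2-DTR epididymal replicate 2, which holds the duct signal, the change was -2.63, and without both epididymal arrays that stood apart it was -2.54 (limma adjusted p = 0.0618). Without wild-type epididymal replicate 2, which holds the hepatocyte signal, it was -3.41 and was called (limma adjusted p = 0.00739). In these bulk samples, fewer cells of a type and less RNA per cell cannot be told apart.

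Retnla in inguinal fat read 5.88 and 6.09 in Mgl2-DTR mice, against 10.72 and 10.97 in wild-type mice. The groups were far apart and both replicate pairs were tight, with means of 5.99 ± 0.15 in Mgl2-DTR and 10.84 ± 0.17 in wild-type fat (SD, n = 2 each). Retnla fell by 4.86 (SE 0.39, 95% interval -5.75 to -3.97), a level 29.0-fold lower, with a limma adjusted p of 0.00179. The Mgl2-DTR readings lay not far above the filter level of 5.71, so the fold rests on readings near that level. Retnla had the rank 1 among falls of all genes tested. Again 1 of the 2 tested members was called, against 0.197% of all genes tested. The call was kept without each array in turn (changes of -4.98 to -4.74, limma adjusted p of 2.36e-04 to 0.0415). Without both muscle-bearing inguinal arrays, which leaves 1 array per genotype there, the change was -4.63 and the call was lost (limma adjusted p = 0.130), as were all others in that comparison.

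Retnla in liver read 3.10 and 3.13 in Mgl2-DTR mice, against 4.004 and 3.19 in wild-type mice. All 4 values were below the filter level, so no fold is given. The means were 3.12 ± 0.019 in Mgl2-DTR and 3.60 ± 0.58 in wild-type liver (SD, n = 2 each), and 1 wild-type array made most of the difference. The change was -0.48 (SE 0.39, 95% interval -1.36 to 0.41, limma adjusted p = 0.9999). None of the members was called in liver, where limma called 0.0708% of all genes tested and 703 genes had an unadjusted p under 0.05. Averaged over the 3 tissues, Retnla fell by 2.88 (SE 0.23, limma adjusted p = 0.00163) in a comparison that called 0.0708% of genes, and this held in each of 27 alternatives. Some of these only move the threshold on the same fit, and could not lose the call.

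The change of Retnla was next compared between tissues. The inguinal change minus the epididymal change was -1.54 (SE 0.56), the larger fall being in inguinal fat. This did not pass the limma test over all genes (adjusted p = 0.995, unadjusted 0.0213), and 0% of genes passed in that comparison, though 364 had an unadjusted p under 0.05. The change in liver, less the mean of the changes in the 2 fat depots, was 3.61 (SE 0.48, limma adjusted p = 0.0202), and 0.236% of genes were called there. Retnla was under the filter level in liver of both genotypes, so that a fall could hardly be measured there. The call did not hold in 7 of 12 cases when 1 array was left out, namely each liver array, both wild-type inguinal arrays and Mgl2-DTR inguinal replicate 1 (limma adjusted p of 0.0508 to 0.159).

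**Figure D2:**
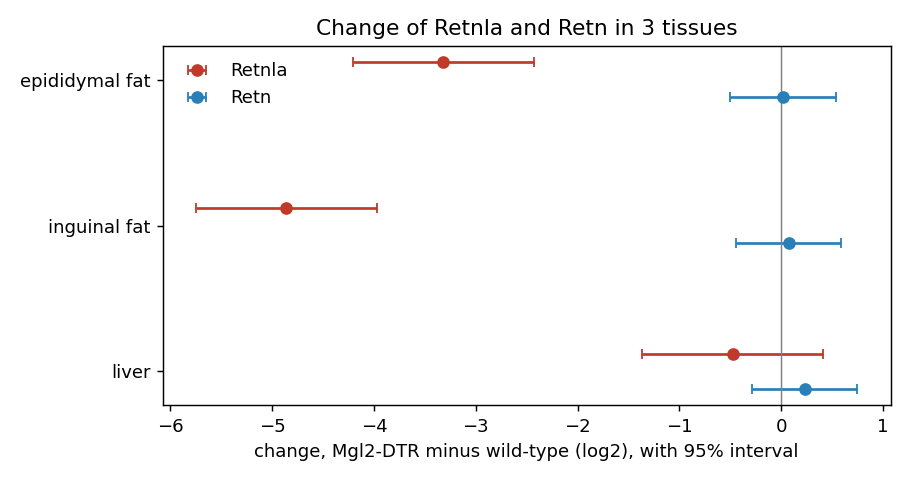
Change of Retnla (red) and Retn (blue) in each tissue, Mgl2-DTR minus wild-type, in log2 units (horizontal axis), with 95% intervals from the limma fit. The intervals of Retnla lie wholly below 0 in both fat depots, and the other 4 intervals include 0.

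Across tissues, the order of Retnla levels was epididymal fat, inguinal fat, liver in Mgl2-DTR mice and inguinal fat, epididymal fat, liver in wild-type mice. In neither genotype did the neighbouring fat depots differ past the test. Inguinal minus epididymal fat was -1.23 in Mgl2-DTR mice (SE 0.39, limma adjusted p = 0.166, 1.96% of genes called). Without Mgl2-DTR epididymal replicate 2, which leaves 1 array in that group, it was -1.91, and no test is read from it. The same difference was 0.32 in wild-type mice (SE 0.39, limma adjusted p = 0.764, 1.49% of genes called). Liver was below both depots in both genotypes. All 4 liver values were under the filter level, so these differences set fat against a dim probe. In Mgl2-DTR mice the difference was -4.09 from epididymal fat and -2.87 from inguinal fat (limma adjusted p of 2.43e-05 and 2.62e-04), where 49.6% and 46.4% of genes were called. In wild-type mice it was -6.93 from epididymal fat and -7.25 from inguinal fat (limma adjusted p of 5.64e-07 and 3.93e-07), where 54.3% and 47.8% of genes were called. With every value under the filter level set to it, the difference in Mgl2-DTR mice was -1.50 from epididymal fat (limma adjusted p = 0.00684), while that from inguinal fat was -0.27 and did not pass (limma adjusted p = 0.569). The differences in wild-type mice were then -4.81 and -5.13 (limma adjusted p of 4.95e-06 and 3.11e-06).

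Retn, the resistin gene, was bright in fat and showed no change with genotype that passed the test. In epididymal fat it read 13.51 and 13.30 in Mgl2-DTR mice, against 13.28 and 13.49 in wild-type mice, so the groups overlapped. In inguinal fat it read 13.46 and 13.51 in Mgl2-DTR mice, against 13.42 and 13.39 in wild-type mice, so the Mgl2-DTR arrays lay just above. In liver it read 6.91 and 6.24 in Mgl2-DTR mice, against 6.11 and 6.58 in wild-type mice, again with overlap. The changes were 0.02 in epididymal fat (95% interval -0.50 to 0.53, limma adjusted p = 0.994), 0.07 in inguinal fat (-0.45 to 0.59, 0.956) and 0.23 in liver (-0.29 to 0.75, 0.9999). In both fat depots the interval reached no further than 0.59 from 0. In fat, Retn stood only 0.30 to 0.54 below the brightest probe of its array. The deposited values carry no mark of saturation, so whether the probe could have read a higher level was not tested, and the intervals hold for the readings only.

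Between tissues, Retn was lower in liver than in both depots. In Mgl2-DTR mice the liver minus fat differences were -6.83 from epididymal and -6.91 from inguinal fat (limma adjusted p of 1.55e-08 and 1.54e-08). In wild-type mice they were -7.04 and -7.06 (limma adjusted p of 1.27e-08 each). No fold is given, as the fat readings lie near the top of the range. The depots did not differ past the test in either genotype, with inguinal minus epididymal differences of 0.08 in Mgl2-DTR and 0.02 in wild-type mice.

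Retnlb, the goblet cell member, read between 3.25 and 4.01 on all 12 arrays and was not tested. Its means were 3.61 ± 0.040 in Mgl2-DTR and 3.51 ± 0.37 in wild-type epididymal fat, 3.83 ± 0.26 in Mgl2-DTR and 3.68 ± 0.0031 in wild-type inguinal fat, and 3.68 ± 0.0055 in Mgl2-DTR and 3.84 ± 0.11 in wild-type liver (SD, n = 2 each). Fitted without the filter, its changes ranged from -0.16 in liver to 0.15 in inguinal fat, with limma adjusted p of 0.875 or more. Of the 9 goblet cell genes listed, Muc2, the main gel-forming mucin of the gut, and Spdef, a goblet cell transcription factor, passed the filter. Neither changed past the test in any tissue, with changes between -0.15 and 0.29.

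Retnlg, the myeloid member, was above the filter level on a single array. It read 6.81 and 4.40 in Mgl2-DTR epididymal fat, against 4.80 and 5.15 in wild-type epididymal fat. In inguinal fat it read 4.01 and 4.40 in Mgl2-DTR mice, against 3.44 and 4.64 in wild-type mice, and in liver 3.95 and 4.27 in Mgl2-DTR mice, against 3.87 and 3.40 in wild-type mice. The value of 6.81 in Mgl2-DTR epididymal replicate 1 stood alone, and its group spans values on both sides of the wild-type ones. Fitted without the filter, the changes were 0.63 (SE 0.65, limma adjusted p = 0.937) in epididymal fat, 0.17 in inguinal fat and 0.48 in liver, none of which passed. Without Mgl2-DTR epididymal replicate 2 and wild-type epididymal replicate 1, which leaves the array at 6.81 alone in its group, the epididymal change was 1.66 and was not called. Retnlg passed the filter in that fit only through the epididymal arrays kept, 1 per genotype. Its differences from epididymal fat were then -2.70 in liver and -2.60 in inguinal fat of Mgl2-DTR mice, and -1.52 in wild-type liver. A single array cannot show the spread of its group, so no test is read from these differences. With all arrays and no filter these differences were -1.50, -1.39 and -1.34, and none passed (limma adjusted p of 0.110, 0.318 and 0.132).

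The other cell markers of that epididymal array were examined beside it. Genes that define neutrophils were dim there, with S100a8 at 3.85, S100a9 at 4.43, Ly6g at 3.95 and Ngp at 3.93. They were dim on every array, with ranges of 3.51 to 4.14, 3.84 to 5.02, 3.89 to 5.39 and 3.93 to 4.50. Their dimness therefore does not set this array apart from the others. The 8 neutrophil genes that passed the filter, of 21 listed, averaged 6.82 on that array and 6.67 to 7.37 on the other fat arrays. Of the eosinophil genes, Siglecf read 6.37 there and 5.34 to 5.56 on the other fat arrays, Ccr3, the eotaxin receptor, 5.61 against 3.47 to 4.61, and Il5ra, the IL-5 receptor, 4.89 against 4.17 to 4.74. Of these, Ccr3 and Il5ra were under the filter level on this array too. The granule protein genes Epx and Prg2 read 4.15 and 4.33 there, within the range of the other fat arrays, as did Ear6 at 3.12. Alox15, the eosinophil gene that passed the filter, was not raised there. It read 8.85, against 8.96 and 9.70 in wild-type epididymal fat and 8.09 on the other Mgl2-DTR epididymal array. These genes were singled out after their values were seen, and their part in the Retnlg value was not tested. Retnla was also higher on this array (7.90) than on the other Mgl2-DTR epididymal array (6.53).

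Members whose genotype groups did not overlap were counted next. In epididymal fat this held for 1 of the 2 tested members, Retnla, against 29.5% of all genes tested. In inguinal fat it held for both, Retnla lower and Retn higher, against 46.9% of genes. In liver it held for 1, Retnla, which was lower and under the filter level there, against 34.4% of genes. Of the members not tested, Retnlb was lower and Retnlg higher on both Mgl2-DTR liver arrays than on both wild-type ones, all under the filter level. How many of the genes not tested were apart in this way was not counted, so nothing is read from it. Each share is read against groups of 2 arrays, in which many genes do not overlap.

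The genes around the members were read for comparison. On chromosome 16, where Retnla lies between Retnlb and Retnlg, Trat1, Morc1, Dppa2 and Myh15 were dim on all arrays and not tested. Dzip3 and Cip2a passed the filter, with changes between -0.42 and 0.46 over the 3 tissues and no call. On chromosome 8, the 6 neighbours of Retn, namely Stxbp2, Pet100, Xab2, Mcemp1, Fcor and Trappc5, all passed the filter. Their changes lay between -0.54 and 0.44, and none was called in any tissue. Within the RELM cluster a fall could be measured in Retnla only, since Retnlb and Retnlg were under the filter level in wild-type mice.

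Retnla was then set beside the pathway that induces it. IL-4 and IL-13, the ligands, act through receptors that hold Il4ra, and the kinases Jak1 and Tyk2 pass the signal to STAT6. Of 7 cytokine genes of this arm only Il33, an alarmin of tissue cells, passed the filter. Its changes were 0.61 in epididymal fat, 0.97 in inguinal fat and 0.48 in liver, with no call. Il4 read 3.55 to 4.14 and Il13 5.14 to 5.80 on the 12 arrays. Of 13 genes of the receptor and STAT6 axis, 10 were tested and 0 were called in any tissue by limma, while Tyk2 in epididymal fat and Il13ra1 in liver had unadjusted p under 0.05. Their median change was -0.02 in epididymal fat, 0.02 in inguinal fat and -0.02 in liver, against 0.0049, 0.10 and 0.011 over all genes tested. Irf4, a transcription factor of alternative activation, had changes of -0.62 in epididymal and -0.49 in inguinal fat (limma adjusted p of 0.745 and 0.784). Tyk2 had a change of -0.42 in epididymal fat, Cebpb 0.43 in inguinal fat, Il13ra1 0.72 in liver and Klf4 -0.35 in liver, all with limma adjusted p of 0.710 or more. Pparg and Cebpb are also on the adipocyte list below, so these lists overlap. Which cells in the bulk samples hold this RNA was not tested.

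Listed products and surface genes of type 2 macrophages changed in part. Of the 20 listed, 13 were tested. Whether each of them is induced in the way that Retnla is was not tested. In epididymal fat 10 of them were lower and 1 fell past the test, Cd209g, a lectin of the DC-SIGN family (change -2.63, limma adjusted p = 0.0371). Both Mgl2-DTR values were under the filter level, and with such values set to it the change was -0.74 and did not pass (limma adjusted p = 0.725). Cd209g was called in 8 of the 23 alternatives in which it was tested, among them 3 of 10 with 1 array left out. In inguinal fat 9 were lower and 3 fell: Cd209g (change -4.28, limma adjusted p = 0.00179), the chemokine Ccl8 (change -3.37, limma adjusted p = 0.00204) and Clec10a, the close paralog of Mgl2 that encodes CD301a (change -2.85, limma adjusted p = 0.0290). Their Mgl2-DTR means were under the filter level, and with values under it set to it the changes were -2.77, -3.10 and -2.10, of which that of Clec10a did not pass (limma adjusted p of 0.00515, 7.53e-04 and 0.138). Without the 2 muscle-bearing arrays they were -4.21, -3.19 and -2.72, and none passed (limma adjusted p of 0.104, 0.0623 and 0.604). With 1 array left out, Clec10a was called in 4 of 12 cases. In liver 8 of the 13 were higher and none was called by limma, with no member at an unadjusted p under 0.05. Ccl22 and Tgm2 had the smallest p-values there, with changes of 0.56 and 0.34. The median change of the 13 was -0.81 in epididymal fat, -0.63 in inguinal fat and 0.23 in liver. Not every product was lower. Arg1, an enzyme classed with Retnla as a marker of alternative activation, averaged 7.66 in Mgl2-DTR and 5.75 in wild-type inguinal fat (change 1.92, limma adjusted p = 0.481), and was named after its value was seen. Chil3 (Ym1), the other common marker, did not pass the filter and read 3.46 to 7.08 in fat.

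General macrophage genes were mostly lower in fat and higher in liver, and few were called. Of 17 tested, 16 were lower in epididymal fat with no call by limma (9 at an unadjusted p under 0.05), and their median change was -0.96. C1qc and C1qa, subunits of complement C1q, came nearest to the threshold, with changes of -1.20 and -1.12 (limma adjusted p of 0.0865 and 0.180). In inguinal fat 15 were lower, with a median of -1.16, and 3 fell: C1qc, C1qb and C1qa, with changes of -2.03, -1.94 and -1.92 (limma adjusted p of 0.00179, 0.00576 and 0.00276). Without the 2 muscle-bearing arrays these changes were -1.92, -1.61 and -1.65, and none passed (limma adjusted p of 0.143, 0.260 and 0.130). In liver 16 of 17 were higher, with a median of 0.61 and no call by limma (4 at an unadjusted p under 0.05), while Cx3cr1, the fractalkine receptor, was lower (change -0.66, limma adjusted p = 0.216). The lowest change among the 17 was that of Csf1r, -1.53 in epididymal and -2.10 in inguinal fat, against -3.32 and -4.86 for Retnla. The mean level of these genes was 9.12 and 8.89 in Mgl2-DTR and 10.3 and 9.52 in wild-type epididymal fat, 7.87 and 8.66 in Mgl2-DTR and 9.19 and 9.34 in wild-type inguinal fat, and 8.46 and 8.41 in Mgl2-DTR and 7.98 and 7.87 in wild-type liver. The part of this shift in the fall of Retnla was not tested.

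Of 9 Kupffer cell genes, 5 were lower and 4 higher in inguinal fat. Clec4f rose most there, by 0.52 (limma adjusted p = 0.598), with both means under the filter level. It was not called, and was named after its value was seen. Folr2, the folate receptor of resident macrophages, and Slc40a1, the iron exporter ferroportin, fell in inguinal fat, with changes of -2.43 and -1.67 (limma adjusted p of 0.00425 and 0.0261). Without the 2 muscle-bearing arrays they were -2.14 and -1.997 and neither passed (limma adjusted p of 0.247 and 0.259). Slc40a1 was under the filter level on both Mgl2-DTR arrays, and with such values set to it its change was -1.35 and did not pass (limma adjusted p = 0.0720). With 1 array left out, Folr2 was called in 11 of 12 cases and Slc40a1 in 6. In epididymal fat all 9 were lower and 0 were called by limma (3 at an unadjusted p under 0.05). Vsig4 and Folr2 had changes of -1.87 and -1.20 there (limma adjusted p of 0.0865 and 0.360). In liver 8 of 9 were higher and 0 were called by limma, while 5 had an unadjusted p under 0.05. Marco, a scavenger receptor, had a change of 1.30 there and Vsig4 of 0.89 (limma adjusted p of 0.0863 and 0.664). Of the 8 neutrophil genes tested, 5 were lower and 3 higher in each fat depot. Lcn2 rose most, by 2.05 in inguinal and 1.51 in epididymal fat (limma adjusted p of 0.68 and 0.75). It was not called in either depot, and was named for fat after its values were seen. Il1r2, the decoy receptor of IL-1, fell in inguinal fat (change -1.31, limma adjusted p = 0.0268). The call held in 5 of 12 cases with 1 array left out, and without the 2 muscle-bearing arrays the change was -0.92 (limma adjusted p = 0.612). Of the 8, 0 were called by limma in epididymal fat or liver (2 and 0 at an unadjusted p under 0.05). Csf3r and Ifitm6 had the smallest p-values in epididymal fat, with changes of -0.85 and -0.63, and Lcn2 and Ifitm6 in liver, with changes of 1.44 and 0.47. The 1 eosinophil gene tested, Alox15, had changes of -0.85 in epididymal fat, 0.38 in inguinal fat and -0.29 in liver, with no call.

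**Figure D3:**
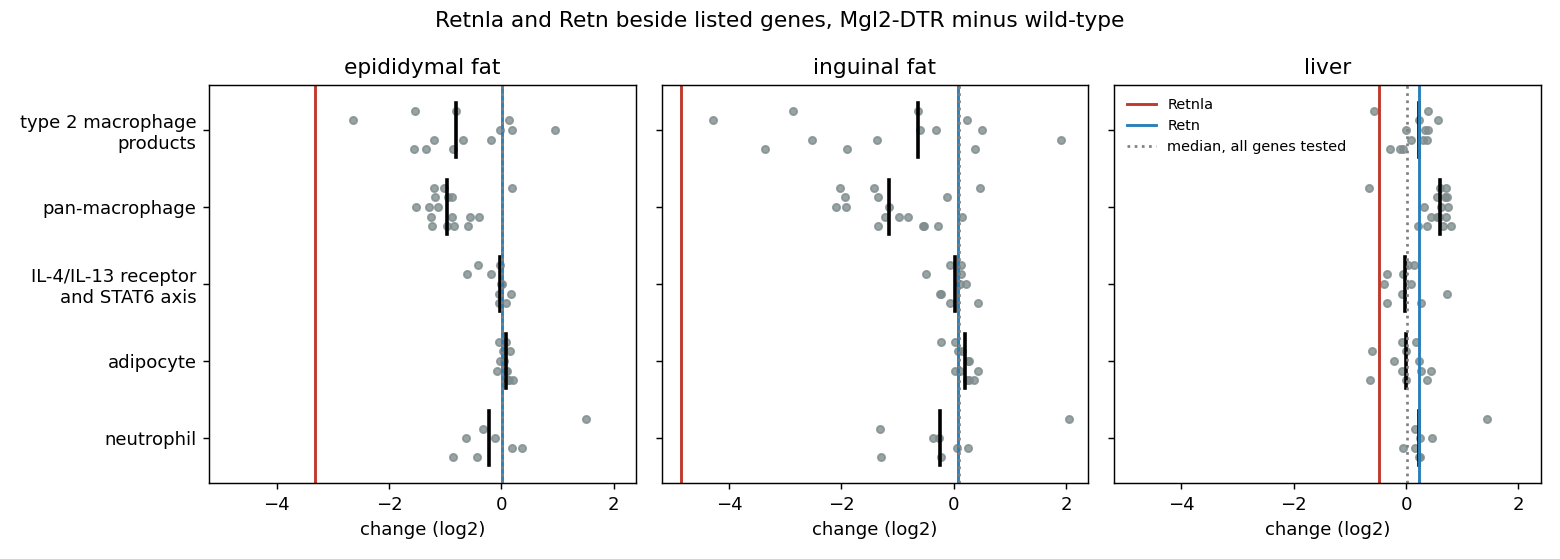
Change of each tested gene of 5 lists, Mgl2-DTR minus wild-type, in log2 units (horizontal axis), in each tissue. Grey points are genes, black bars are list medians, the red and blue lines are Retnla and Retn, and the dotted line is the median of all genes tested. Retnla lies to the left of every listed gene in both fat depots, and Retn lies among the adipocyte genes.

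Retn was set beside the fat cell's other genes in the same way. Of 10 adipokines, 5 were tested and 0 were called in any tissue by limma, with no unadjusted p under 0.05. Leptin (Lep) had changes of 0.24 in epididymal and 0.29 in inguinal fat (limma adjusted p of 0.841 and 0.778). Adiponectin (Adipoq) had changes of 0.16 in inguinal fat and -0.74 in liver, where it was under the filter level. Nrg4 had a change of -0.28 in epididymal fat and Nampt of 0.19 in liver. Of 14 adipocyte identity genes, 12 were tested and 0 were called by limma, and 1 had an unadjusted p under 0.05, Cebpa in liver (change -0.64, limma adjusted p = 0.758). Their median change was 0.08 in epididymal fat, 0.20 in inguinal fat and -0.0003 in liver. In epididymal fat the smallest p-values were those of Pnpla2, the triglyceride lipase, and Slc2a4, the insulin-responsive glucose transporter, with changes of 0.16 and 0.21. In inguinal fat they were those of Cebpa and Cebpb, with changes of 0.36 and 0.43. In liver Lpl followed Cebpa, with a change of 0.44.

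Proposed receptors and signal partners of the family were measured as well: Tlr4, Cap1, Ror1 and Dcn, proposed to bind resistin (Cap1 from work on human resistin), and Btk, proposed as a partner of RELMα. All 5 were tested and 0 were called in any tissue by limma, with 1 unadjusted p under 0.05, that of Btk in epididymal fat. Btk, a kinase of B cells and myeloid cells, had changes of -1.13 in epididymal and -0.59 in inguinal fat (limma adjusted p of 0.710 and 0.810). Cap1 had changes of -0.31 in epididymal and 0.13 in inguinal fat, and in liver Ror1 had 0.49 and Tlr4 0.37. The median of the 5 was -0.22 in epididymal fat, 0.06 in inguinal fat and 0.26 in liver.

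The genes whose levels were most like Retnla over the 8 fat arrays were, by Pearson's r across arrays, H2-Ab1 (0.988), Abca9 (0.983), C1qa (0.978), Gfra2 (0.978), Slc9a9 (0.976) and H2-Aa (0.974). The 8 points share their genotype, so r mostly repeats the contrast between Mgl2-DTR and wild-type fat, and it is given as a description. They were chosen for this likeness. All 6 fell past the test in inguinal fat, with changes of -1.92 to -1.36, but none did without the 2 muscle-bearing arrays, and none passed in epididymal fat, where their changes were -1.31 to -1.02. In liver their changes were 0.32 to 0.77. H2-Ab1 and H2-Aa encode the chains of an MHC class II molecule, and C1qa a chain of complement C1q. Over all 12 arrays the 6 most alike were Abca9 (0.973), Ms4a7 (0.962), Gab3 (0.957), Stard8 (0.957), Stab1 (0.948) and Kctd12 (0.948), with 1 gene, Abca9, in both sets.

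Retn varied over only 0.23 log2 units among the 8 fat arrays. The genes most like it there were Bcl7b (0.981), Rev1 (0.975), Mmachc (0.970), Sh3glb1 (0.966), Arhgap26 (0.954) and Adk (0.953), in a range close to the spread between replicates. Over all 12 arrays the contrast of fat with liver sets the order, and the genes most like Retn were Fabp4 (0.9998), Slc1a5 (0.999), Oxct1 (0.9985), Lep (0.9985), Lpl (0.9985) and Slc25a4 (0.998). Fabp4, a fatty acid carrier of fat cells, averaged 6.75 in liver and 13.3 in fat, the same contrast as Retn.

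**Figure D4:**
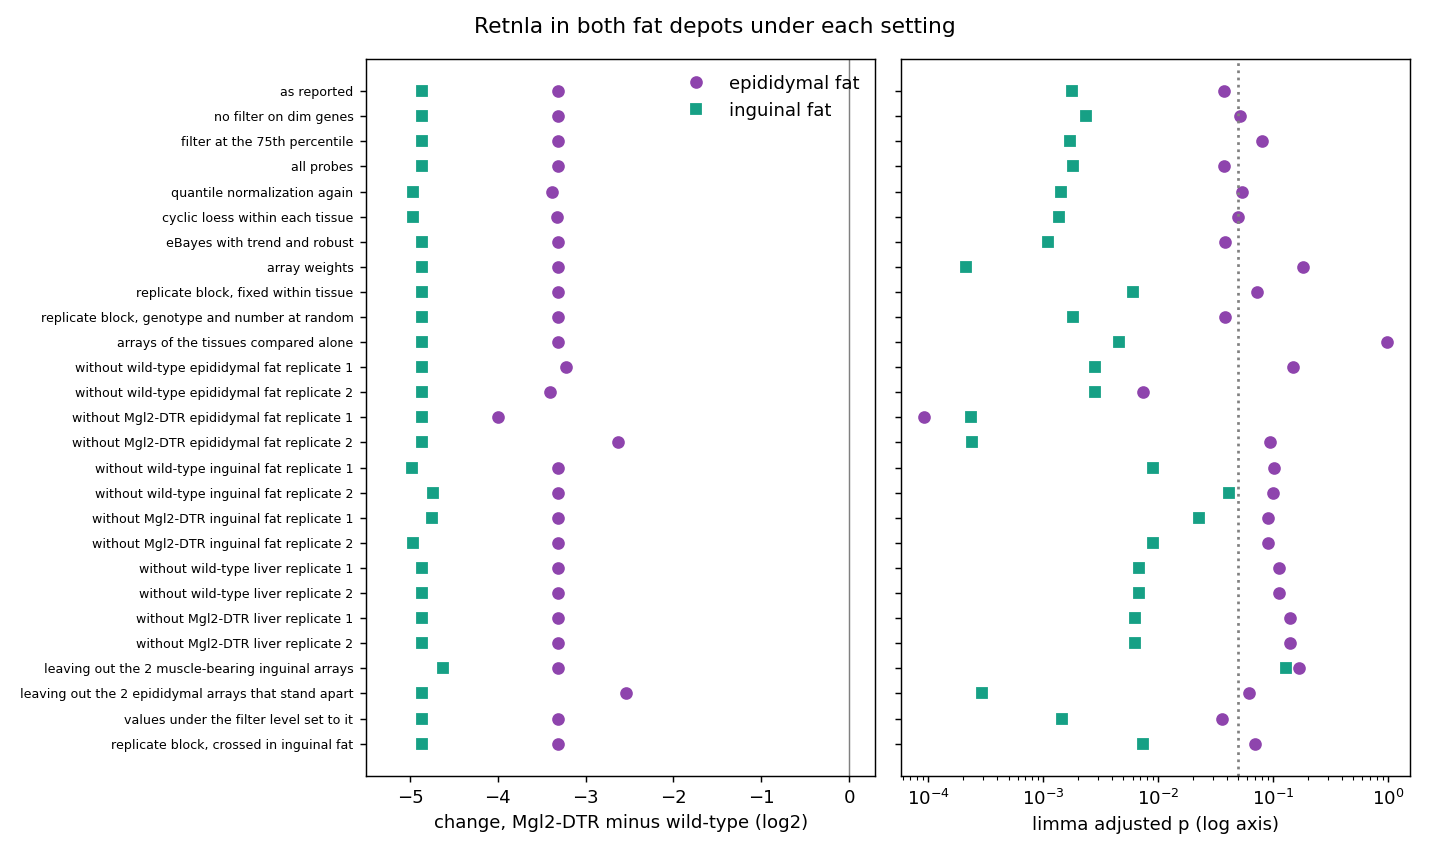
Change of Retnla, Mgl2-DTR minus wild-type, in log2 units (left, horizontal axis), and its limma adjusted p on a log axis (right) under each setting, for epididymal fat (purple circles) and inguinal fat (green squares). The dotted line is the threshold of 0.05. All changes are below 0, most epididymal adjusted p lie to the right of the threshold, and 1 inguinal adjusted p does (0.130).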

How the data were processed

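RNA from 12 tissue samples was labelled with biotin and hybridised to mouse gene arrays. The values are normalized log2 levels as deposited, 1 column per sample with 41345 probes. Of the tools behind them, limma is named in the submitters' processing notes, and how background, normalization and probe summary were handled is, in the sources used here, not given. By the platform annotation 23521 probes have 1 symbol, 1814 several and 16010 none that is listed. The 12710 genes tested went into 1 fit of 6 group means over the 12 arrays, with limma 3.58.1 and R 4.3.3 (6 residual and 3.35 prior degrees of freedom), two-sided, adjusted by Benjamini and Hochberg over all genes tested and called under 0.05. Having 2 arrays per group limits the precision. The fit was first tested on simulated data. Promoters are from RefSeq's GRCm38.p6 table and were aligned locally with Biopython 1.88. Retnlb is named only.

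The members, gene lists and tests were chosen with earlier results of these data known. The text names the 4 members, Mgl2, up to 4 called genes of each list and comparison or the 2 smallest p-values where none was called, the 6 genes most like a tested member over fat arrays, and 3 neighbours on each side. Listed genes with no single-symbol probe, 14 in all, were not used. Alternatives covered the filter, probes, normalization, variance model, a replicate block, the samples fitted, thresholds and each array left out, where a lone array takes its spread from the groups that remain. Added after seeing the data were leaving out the muscle-bearing inguinal arrays or the epididymal arrays that stood apart, a floor at the filter level and a crossed block.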

Additional observations from a re-analysis of the deposited data

Results flagged for a closer look

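The genotype change of Retnla differed between liver and fat by the test of the difference itself. The change in liver, less the mean of the changes in the 2 fat depots, was 3.61 (SE 0.48, limma adjusted p = 0.0202). Retnla read 3.10 to 4.004 in liver of both genotypes, under the filter level of 5.71. A fall could hardly be measured there, so the difference rests mainly on the change in fat. The call did not hold in 7 of 12 cases with 1 array left out. No group holds enough arrays to look for an array far from the others.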

How the results depend on the processing

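The epididymal change of Retnla kept its direction in all 28 alternatives and its call in 9. Some of the 28 only move the threshold on the same fit (adjusted p under 0.1, or a change of 1 or more). Those could not lose the call. The value was -3.32 with an adjusted p past the threshold with no filter (0.0520), a filter at the 75th percentile (0.0800), array weights (0.183), the epididymal arrays alone (0.989), the 2 muscle-bearing inguinal arrays left out (0.169), a fixed replicate block (0.0728) and a block crossed in inguinal fat (0.0703). It was -3.39 after quantile normalization again (0.0538) and -2.54 without the 2 epididymal arrays that stood apart (0.0618). With each array left out it ranged from -4.003 to -2.63. The number of members called in epididymal fat was 0 in the same 19 alternatives, and 0 to 1 with each array left out. The inguinal change lost its call only without the 2 muscle-bearing arrays (-4.63), where 0 members were called, and ranged from -4.98 to -4.74 with each array left out. The liver minus fat change of Retnla was 3.50 without those arrays (0.186) and ranged from 3.20 to 4.02 with each array left out. The cause was not tested.

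Replicate numbers are shared, but same-numbered arrays deviated together only weakly or not at all (r of 0.05 in epididymal fat, -0.12 in inguinal fat and 0.09 in liver between genotypes, and -0.011 to 0.12 between tissues of a genotype). With the fixed replicate block 1 gene was called in epididymal fat, against 4, and 19 in inguinal fat, against 25. As a random block, genotype and number gave a correlation of 0.02 and 4 and 26 calls. With the crossed block 1 and 18 genes were called. Over all alternatives the number of genes called ranged from 0 to 776 in epididymal fat (the highest without wild-type epididymal replicate 2) and from 0 to 55 in inguinal fat. The inguinal median change of all genes was 0.10, 0.04 after quantile normalization again and 0.0044 after cyclic loess.

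Uncalled values of Retn turned sign, as did 1 of Retnlg, the liver change less the mean fat change (0.079, and -0.44 without the 2 epididymal arrays that stood apart). For Retn, the epididymal change was -0.014 under cyclic loess and -0.088 to 0.12 with each array left out, its liver change -0.11 to 0.57 and its average -0.0064 to 0.22. Its inguinal minus epididymal change was -0.049 to 0.16, and its liver change less the mean fat change -0.15 to 0.52. Inguinal minus epididymal fat was -0.026 to 0.18 in Mgl2-DTR and -0.082 to 0.13 in wild-type mice with each array left out, and -0.026 and -0.082 without the 2 epididymal arrays that stood apart.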
